A study of Mus musculus with 18 samples.

Results

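The transcripts described here belong to 40 genes of the glutathione and thioredoxin systems, of superoxide and peroxide removal, of NADPH supply and of the NRF2-KEAP1 switch. They were picked by gene symbol from the table of 18204 genes, which listed 38 of them, and all 38 passed the filter on low values that 16383 genes passed. The choice of genes was made with earlier results of these data known. The levels of Gsta4 and Mgst1 were not analysed here. The cells were J774.1, a mouse macrophage line, either wildtype or Ctbp1/2dKO (dKO), a line in which CRISPR edits introduced frameshifts and early stop codons into both Ctbp1 and Ctbp2. Those genes encode C-terminal binding proteins, transcriptional co-regulators with a dehydrogenase domain that MTOB (4-methylthio-2-oxobutyrate) and 4-Cl-HIPP, a hydroxyimino acid with a chlorophenyl ring, are used to block. Each genotype received 1.5 mM MTOB, 250 µM 4-Cl-HIPP or a PBS/DMSO vehicle for 4 h, with 3 samples in each of the 6 groups, and the study asked whether inhibitor effects in wildtype cells were still present in dKO cells. The dKO line was grown out from sorted single cells, so the edits cannot be told apart from other differences of a clone. The methods speak of both wildtype and knockout clones, but whether such a clone or the parental line gave the wildtype samples is not given in the sources used here. Within a genotype both inhibitors were compared with the same 3 vehicle samples. MTOB was dissolved in PBS and 4-Cl-HIPP in DMSO, and the paper names the vehicle both as PBS/DMSO and as DMSO. The part of a solvent difference in either comparison was not tested.

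Glutathione is a small thiol made from cysteine, and cells keep it and the protein thioredoxin reduced at the cost of NADPH. Peroxiredoxins, catalase and glutathione peroxidases remove peroxides, and sulfiredoxin, thioredoxin reductase and glutaredoxins restore oxidised protein thiols. NRF2, encoded by Nfe2l2, is held down by KEAP1 and induces many of these genes from antioxidant response elements when KEAP1 thiols are modified by electrophiles or oxidants, and macrophages, which make oxidants themselves, are known for a strong response of this kind.

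The genotype was checked first. Ctbp1 measured 218 ± 18.1 TPM (SD, n = 3) in wildtype and 25.1 ± 0.638 TPM in dKO vehicle samples, and Ctbp2 measured 92.6 ± 4.57 and 75.9 ± 3.13 TPM. TPM is a transcript level scaled to transcript length and to the library's total, so levels can be set side by side between genes, but it leaves the depth of a sample unknown. Both were lower in dKO cells, Ctbp1 by a log2 fold change of -3.07 (adjusted p = 1.61e-10) and Ctbp2 by -0.28 (adjusted p = 0.00427). Since a frameshift need not remove the transcript, the level of Ctbp2 RNA does not check the loss of its protein. The paper reports the loss of both proteins by western blot. All 8 macrophage markers on the list were detected, with a summed level of 2283 to 2637 TPM over the 18 samples. Of these markers 3 passed the test described below with MTOB in wildtype cells, 2 in dKO cells and 4 between genotypes under vehicle. Of all genes tested, 7.26%, 6.58% and 10.7% passed in these comparisons. Adgre1 had a log2 fold change of 1.79 in the first. Between genotypes Adgre1 was lower in dKO cells at -1.59, while Itgam (1.57), Fcgr1 (0.62) and Cd68 (0.21) were higher. The part of such shifts in the results below was not tested. The summed levels of 5 other cell types, each read from 1 listed gene with 13 of the 18 markers of these types not analysed, reached 2.07 TPM at most (Cd3d), and each of these 5 genes was at 0 in some of the samples. Replicates of a group correlated at a Pearson r of 0.983 to 0.987 across genes.

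Under vehicle the 38 genes covered a wide range of levels. Prdx1, a peroxiredoxin of the cytosol, was the highest at 1056 ± 19.4 TPM in wildtype cells, followed by Sod1, the cytosolic superoxide dismutase, at 967 ± 12.5 TPM and Txn1, the cytosolic thioredoxin, at 633 ± 18.1 TPM. The transketolase gene Tkt came next at 418 ± 6.08 TPM. At the low end stood Slc7a11, the light chain of the cystine-glutamate exchanger, at 4.81 ± 0.379 TPM, and Nqo1, a quinone reductase, which was at 0 in 2 of the 3 samples. The spread between replicates was small for most of them, with a median coefficient of variation of 3.8% in wildtype vehicle and 4% in dKO vehicle samples and a highest of 173% for Nqo1. The summed level of the 38 genes was 7334 ± 86.4 TPM in wildtype and 8201 ± 22.1 TPM in dKO vehicle samples, or 0.733% and 0.82% of all TPM. It stood at 8677 ± 124 TPM in wildtype and 10244 ± 416 TPM in dKO samples with MTOB, and at 7363 ± 125 and 8251 ± 44.3 TPM with 4-Cl-HIPP. In these bulk samples, less RNA of a gene per cell and fewer cells that express it cannot be told apart.

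**Figure D1:**
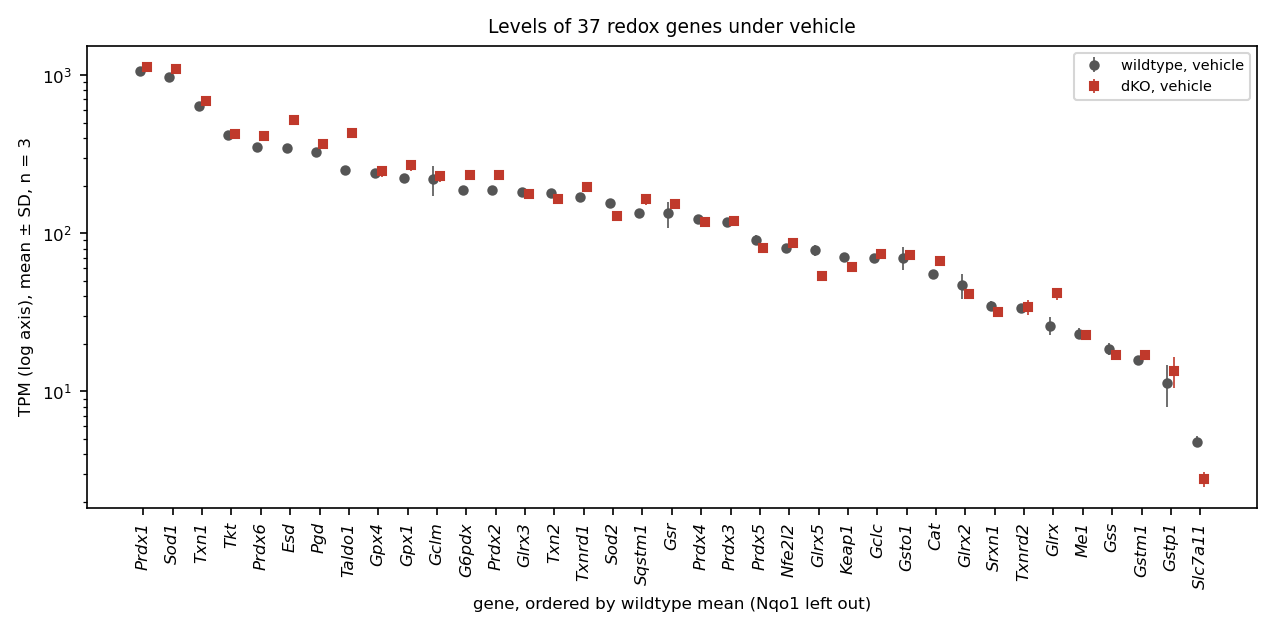
Level of 37 redox genes (Nqo1 left out) under vehicle in TPM on a log axis, ordered by the wildtype mean, as mean ± SD of 3 samples for wildtype (circles) and dKO (squares). Levels run from 1056 TPM for Prdx1 to 4.81 TPM for Slc7a11 in wildtype cells, and Taldo1, Esd and Glrx stand higher and Slc7a11 lower in dKO cells.

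The promoters of these genes were searched for the core of the antioxidant response element, TGACNNNGC, where N is any base, on both strands, so that GCNNNGTCA marks it on the opposite strand. The RefSeq table (GRCm38.p6) gives 300 bases around each start, from 250 before to 50 after it, and held 36 of the 40 members, with no entry for Gclc, Gsr, Prdx6 and Gsta4. The core was found in 10 of these 36 (27.8%) and in 14.0% of the 27025 genes with a promoter in the table. A match only says that these letters stand in the window. The matches of Prdx1, Sod1, Mgst1 and Pgd are counted but not printed. With MTOB Pgd rose in both genotypes, Prdx1 passed in dKO cells alone and Sod1 in neither, and Mgst1 had no level here. The stretches printed here are from 5 genes that rose with MTOB in both genotypes and from Nfe2l2, which did not pass the test with MTOB, and were placed on GRCm39 by exact match. Each reads 5′ to 3′ on the strand of the gene, with the core in capitals, and its position is counted from the transcription start as base 0.
Gclm, chr3:122039032-122039120 (plus strand, core at -134 to -126): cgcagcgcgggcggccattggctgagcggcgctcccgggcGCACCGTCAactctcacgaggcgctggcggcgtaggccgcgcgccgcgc
Txnrd1, chr10:82694908-82694996 (plus strand, 1 of several listed starts, core at -92 to -84): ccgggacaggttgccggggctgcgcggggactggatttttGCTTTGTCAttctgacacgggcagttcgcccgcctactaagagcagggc
Srxn1, chr2:151947462-151947490 (plus strand, core at 28 to 36, after the start): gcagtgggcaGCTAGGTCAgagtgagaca
Me1, chr9:86577955-86578013 (minus strand, core at -6 to 2): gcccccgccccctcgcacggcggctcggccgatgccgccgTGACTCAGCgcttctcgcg
G6pdx, chrX:73472495-73472583 (minus strand, core at -57 to -49): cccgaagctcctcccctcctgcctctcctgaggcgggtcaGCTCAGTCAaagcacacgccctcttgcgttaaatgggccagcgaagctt
Nfe2l2, chr2:75535199-75535257 (minus strand, core at -240 to -232): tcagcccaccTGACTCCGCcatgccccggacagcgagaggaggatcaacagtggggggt
The core lies on the strand opposite to the gene in Gclm, Txnrd1, Srxn1 and G6pdx and on the strand of the gene in Me1 and Nfe2l2.

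MTOB raised a large share of these genes in both genotypes. As the genes were chosen with earlier results of these data known, the shares below describe them and are no independent evidence. Of the 38 genes, 15 passed the test in wildtype cells (limma on log2(TPM + 1), Benjamini-Hochberg adjusted p below 0.05), 14 of them higher and 1 lower, against 7.26% of all genes tested, 3.8% higher and 3.46% lower. In dKO cells 15 passed, all higher, against 6.58% of all genes, 3.04% higher and 3.54% lower. With a fold change above 1.5 required as well, 8 genes were called in each genotype, all higher, against 1.56% of all genes called higher in wildtype and 1.15% in dKO cells. The 8 were the same genes: Glrx, Slc7a11, Sqstm1, Srxn1, Txnrd1, Esd, Gpx1 and Gclm. The median log2 fold change over the 38 genes was 0.11 in wildtype and 0.16 in dKO cells, against medians of -0.006 and -0.013 over all genes. The core motif shown above was present in 6 of the 12 genes with a promoter entry that passed in both genotypes (50%). It was present in 3 of the 8 called ones (37.5%) and in 2 of the 20 that passed in neither (10.0%). Of the 6, Pgd was not printed above, and its core lies at 3 to 11, after a listed start inside the annotated gene. Its window is chr4:149250520-149250576, and the gene spans chr4:149233246-149251228 on the minus strand (GRCm39).

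**Figure D2:**
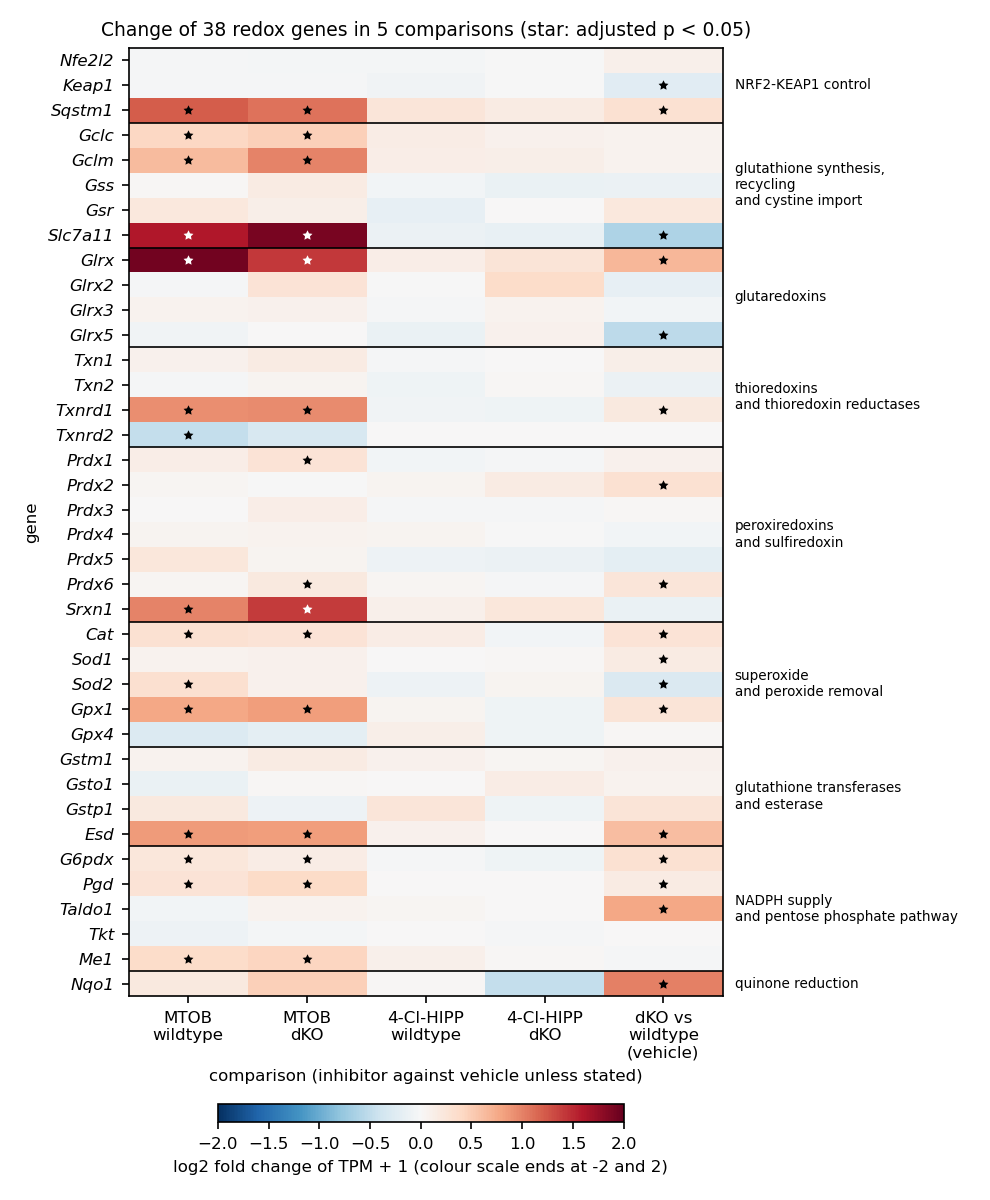
Log2 fold change of TPM + 1 (colour, blue for lower and red for higher) for 38 redox genes in rows, grouped by role, in 5 comparisons in columns, with a star where the adjusted p was below 0.05. Stars fill 15 cells in each MTOB column, none in the 4-Cl-HIPP columns and 17 in the column of dKO against wildtype.

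The upstream control genes came out unevenly. Nfe2l2 lies at chr2:75504739-75534985 on the minus strand (GRCm39). Nfe2l2 measured 82.8, 76.7 and 83.0 TPM in the wildtype vehicle samples, 83.7, 76.9 and 77.4 TPM with MTOB and 80.5, 75.8 and 79.2 TPM with 4-Cl-HIPP. In dKO cells it measured 88.9, 83.9 and 86.8 TPM under vehicle, 78.6, 88.5 and 86.0 TPM with MTOB and 86.3, 86.5 and 84.1 TPM with 4-Cl-HIPP. The treated and vehicle samples overlapped in both genotypes. Its log2 fold change with MTOB was -0.03 in wildtype (95% interval -0.14 to 0.08) and -0.04 in dKO cells (-0.15 to 0.07), neither of which passed the test. Keap1 lies at chr9:21141026-21150679 on the minus strand (GRCm39). Keap1, the adaptor that sends NRF2 for degradation, measured 70.4, 69.1 and 73.2 TPM under vehicle, 73.2, 64.6 and 70.1 TPM with MTOB and 66.9, 70.2 and 64.9 TPM with 4-Cl-HIPP in wildtype cells. In dKO cells the values were 55.9, 64.3 and 62.4 TPM under vehicle, 59.3, 62.7 and 58.0 TPM with MTOB and 56.8, 63.6 and 61.1 TPM with 4-Cl-HIPP. Samples with either inhibitor overlapped the vehicle samples, and the MTOB log2 fold changes were -0.03 (-0.16 to 0.10) and -0.02 (-0.15 to 0.11). Exons of Nfe2l2 overlap E030042O20Rik, and those of Keap1 overlap Gm16754 and Gm68155, on the opposite strand.

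Sqstm1 lies at chr11:50089572-50107684 on the minus strand (GRCm39). Sqstm1 encodes p62, an autophagy receptor that binds KEAP1. Its wildtype levels were 136, 138 and 127 TPM under vehicle, 299.6, 328 and 303 TPM with MTOB and 148, 164 and 163 TPM with 4-Cl-HIPP. Its dKO levels were 178, 164 and 152 TPM under vehicle, 379.8, 331 and 339 TPM with MTOB and 193, 181 and 176 TPM with 4-Cl-HIPP. In each genotype the MTOB samples were the highest, and the lowest of all 6 lay above the 12 other samples. The wildtype 4-Cl-HIPP samples also lay above the wildtype vehicle samples, while those of dKO cells overlapped theirs. It rose with MTOB 2.32-fold in wildtype (log2 fold change 1.21, SE 0.07, adjusted p = 1.52e-08) and 2.12-fold in dKO cells (log2 fold change 1.08, SE 0.07, adjusted p = 6e-08). Its exons overlap those of Mgat4b and Mrnip on the opposite strand, and as the library kit was unstranded, reads from the overlap cannot be assigned to a strand.

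In glutathione synthesis, recycling and cystine import, 3 of the 5 genes rose with MTOB in each genotype. Slc7a11 lies at chr3:49846975-50398070 on the minus strand (GRCm39). Slc7a11, which brings in the cystine used to make glutathione, measured 4.94, 5.11 and 4.39 TPM under vehicle, 15.3, 17.5 and 17.1 TPM with MTOB and 3.78, 4.59 and 4.85 TPM with 4-Cl-HIPP in wildtype cells. The dKO samples read 2.5, 3.10 and 2.81 TPM under vehicle, 11.5, 13.8 and 14.4 TPM with MTOB and 2.25, 2.53 and 2.47 TPM with 4-Cl-HIPP. MTOB samples were well above all others in both genotypes, and the dKO vehicle samples were the lower of the vehicle samples. The mean rose 3.46-fold in wildtype (log2 fold change 1.60, SE 0.10, adjusted p = 3.09e-08) and 4.71-fold in dKO cells (log2 fold change 1.9, SE 0.10, adjusted p = 5.96e-09), where the log2 fold change of TPM + 1 understates the change of such a low gene.

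Gclm lies at chr3:122039126-122065061 on the plus strand (GRCm39). Gclm, the modifier subunit of glutamate-cysteine ligase, which catalyses the first and limiting step of glutathione synthesis, measured 254, 239 and 167 TPM under vehicle, 339, 312 and 356 TPM with MTOB and 243, 223 and 249 TPM with 4-Cl-HIPP in wildtype cells. The third wildtype vehicle sample lay well below the other two, but no vehicle sample reached the MTOB samples. In dKO cells it measured 222, 214 and 248 TPM under vehicle, 505, 476 and 390.1 TPM with MTOB and 229, 242 and 272 TPM with 4-Cl-HIPP, again without overlap between MTOB and the rest. The rise was 1.53-fold in wildtype (log2 fold change 0.63, SE 0.13, adjusted p = 0.00799) and 2-fold in dKO cells (log2 fold change 0.99, SE 0.13, adjusted p = 0.000232). The wildtype call rested on the low vehicle sample and on the shared spread: without wildtype vehicle replicate 3 the log2 fold change was 0.44 (adjusted p = 0.0247) and fell short of 1.5-fold, and with only the 2 groups in the fit the adjusted p was 0.138. Exons of Gclm overlap those of Gm6061 on the same strand and of Gm17494 on the other. Gclc, the catalytic subunit of the same ligase, rose from 70.0 ± 2.18 to 93.5 ± 1.05 TPM in wildtype (log2 fold change 0.41, SE 0.05, adjusted p = 4.18e-05) and from 73.7 ± 1.94 to 104 ± 7.61 TPM in dKO cells (log2 fold change 0.48, SE 0.05, adjusted p = 1.03e-05). Gss, glutathione synthetase, and Gsr, glutathione reductase, did not pass the test, with log2 fold changes of 0.03 and 0.21 in wildtype and 0.16 and 0.12 in dKO cells.

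**Figure D3:**
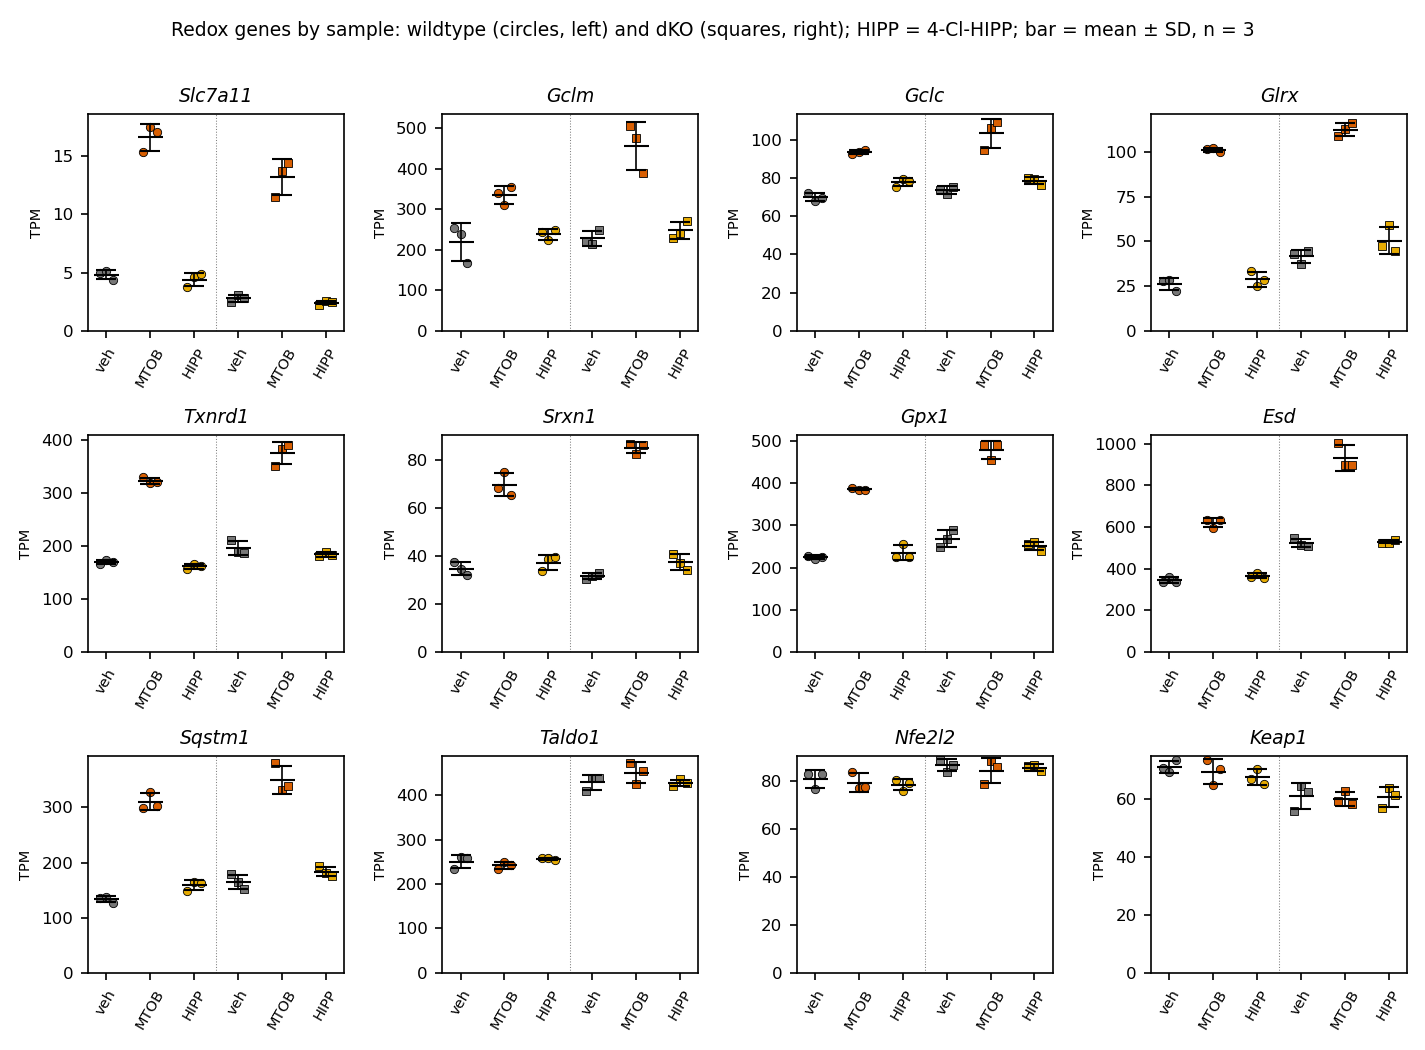
Level in TPM (axes from 0) of 12 redox genes in each of the 18 samples, wildtype as circles on the left and dKO as squares on the right of each panel, with mean ± SD of 3 samples. The MTOB samples stand above the vehicle samples in the first 9 panels, while in those of Taldo1, Nfe2l2 and Keap1 the samples with an inhibitor overlap the vehicle samples of their genotype.

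Among the 4 glutaredoxin genes Glrx, whose product reduces protein-glutathione disulfides, rose and the other 3 did not pass. Glrx lies at chr13:75987974-76002178 on the plus strand (GRCm39). Wildtype Glrx levels were 27.6, 28.4 and 22.1 TPM under vehicle, 102, 102 and 100 TPM with MTOB and 33.4, 25.0 and 28.2 TPM with 4-Cl-HIPP. In dKO cells they were 42.9, 37.6 and 44.6 TPM under vehicle, 109, 113 and 116 TPM with MTOB and 47.7, 59.02 and 44.5 TPM with 4-Cl-HIPP. The MTOB samples stood above all others in both genotypes, and every dKO vehicle sample lay above every wildtype vehicle sample. Glrx rose 3.89-fold in wildtype (log2 fold change 1.93, SE 0.12, adjusted p = 4.09e-08) and 2.7-fold in dKO cells (log2 fold change 1.42, SE 0.12, adjusted p = 1.71e-06). Glrx2, Glrx3 and Glrx5, the last a mitochondrial protein of iron-sulfur cluster assembly, lay between -0.07 and 0.07 in wildtype and between 0.00 and 0.28 in dKO cells on the log2 scale.

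Txnrd1 lies at chr10:82669785-82733546 on the plus strand (GRCm39). Txnrd1, the cytosolic thioredoxin reductase, measured 166, 173 and 170.2 TPM under vehicle, 330, 319 and 319.8 TPM with MTOB and 156, 165 and 163 TPM with 4-Cl-HIPP in wildtype cells. The dKO values were 211, 189 and 187 TPM under vehicle, 352, 383 and 391 TPM with MTOB and 181, 188 and 182 TPM with 4-Cl-HIPP. MTOB samples exceeded all others in each genotype without overlap. It rose 1.9-fold in wildtype (log2 fold change 0.93, SE 0.05, adjusted p = 4.32e-09) and 1.92-fold in dKO cells (log2 fold change 0.94, SE 0.05, adjusted p = 4.74e-09). Its mitochondrial counterpart Txnrd2 went the other way, from 33.5 ± 0.948 to 24.0 ± 2.80 TPM in wildtype (log2 fold change -0.47, SE 0.09, adjusted p = 0.00569), the 1 member that fell, and measured 34.01 ± 3.65 and 27.0 ± 2.22 TPM in dKO cells (log2 fold change -0.32, SE 0.09, adjusted p = 0.0591), where it did not pass. In wildtype cells Txnrd2 no longer passed with only the 2 groups in the fit (adjusted p = 0.0643). The thioredoxins Txn1 and Txn2, of the cytosol and the mitochondria, did not pass in either genotype, with log2 fold changes of 0.08 and -0.03 in wildtype and 0.16 and 0.05 in dKO cells.

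Srxn1 lies at chr2:151947436-151957687 on the plus strand (GRCm39). Srxn1, sulfiredoxin, which repairs peroxiredoxins that peroxide has overoxidised, measured 37.5, 34.5 and 32.2 TPM under vehicle, 68.4, 75.1 and 65.6 TPM with MTOB and 33.5, 38.6 and 39.5 TPM with 4-Cl-HIPP in wildtype cells. In the dKO line it measured 30.5, 31.6 and 32.9 TPM under vehicle, 86.6, 82.5 and 86.4 TPM with MTOB and 40.8, 37.2 and 34.2 TPM with 4-Cl-HIPP. The dKO vehicle samples overlapped the wildtype ones, and the dKO MTOB samples were the highest of all. Srxn1 rose 2.01-fold in wildtype (log2 fold change 0.99, SE 0.08, adjusted p = 8.37e-07) and 2.69-fold in dKO cells (log2 fold change 1.40, SE 0.08, adjusted p = 1.97e-08). Its exons overlap the antisense transcript 9230118N01Rik. Of the 6 peroxiredoxins none passed in wildtype cells, with log2 fold changes between 0.01 and 0.23. In dKO cells Prdx1 rose from 1123 ± 8.22 to 1359 ± 68.6 TPM (log2 fold change 0.27, SE 0.04, adjusted p = 0.00105) and Prdx6 from 411 ± 16.3 to 471 ± 4.11 TPM (log2 fold change 0.20, SE 0.05, adjusted p = 0.0243). Neither passed in dKO cells with only the 2 groups in the fit (adjusted p = 0.0503 and 0.0706), and Prdx6 failed also when any of 5 dKO samples was left out (adjusted p of up to 0.111 without dKO vehicle replicate 3), under quantile normalization (0.0817) and without the variance trend (0.0702).

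Among the genes of superoxide and peroxide removal, 3 of 5 rose with MTOB in wildtype and 2 of 5 in dKO cells. Gpx1 lies at chr9:108216102-108217546 on the plus strand (GRCm39). Gpx1, the main cytosolic glutathione peroxidase, measured 228, 220.1 and 226 TPM under vehicle, 389, 384 and 385 TPM with MTOB and 225, 256 and 225 TPM with 4-Cl-HIPP in wildtype cells. Its dKO values were 248, 269 and 288 TPM under vehicle, 491, 455 and 491 TPM with MTOB and 255, 259.5 and 240.2 TPM with 4-Cl-HIPP. MTOB samples did not overlap any other samples of their genotype. The rise was 1.72-fold in wildtype (log2 fold change 0.78, SE 0.06, adjusted p = 5.23e-07) and 1.78-fold in dKO cells (log2 fold change 0.84, SE 0.06, adjusted p = 2.3e-07). Exons of Gpx1 overlap those of Gm57050 on the other strand. Cat, catalase, rose from 54.9 ± 1.08 to 68.0 ± 3.82 TPM in wildtype (log2 fold change 0.30, SE 0.05, adjusted p = 0.00212) and from 67.1 ± 1.58 to 82.1 ± 6.66 TPM in dKO cells (log2 fold change 0.28, SE 0.05, adjusted p = 0.00384), the latter not passing with only the 2 groups in the fit (adjusted p = 0.119). Sod2, the mitochondrial superoxide dismutase, rose in wildtype (log2 fold change 0.32, SE 0.06, adjusted p = 0.00286) and had a log2 fold change of 0.09 in dKO cells that did not pass. Sod1 and Gpx4, the peroxidase of membrane lipids, passed in neither genotype, with log2 fold changes of 0.07 and -0.27 in wildtype and 0.09 and -0.19 in dKO cells.

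Esd lies at chr14:74969722-74989991 on the plus strand (GRCm39). Esd encodes S-formylglutathione hydrolase, the esterase that ends the glutathione-dependent removal of formaldehyde. It measured 336, 359.8 and 335 TPM under vehicle, 634, 597 and 633 TPM with MTOB and 361, 378 and 355 TPM with 4-Cl-HIPP in wildtype cells. The dKO samples had 548, 513 and 508 TPM under vehicle, 1006, 896 and 899 TPM with MTOB and 524, 524 and 536 TPM with 4-Cl-HIPP. MTOB samples were the highest in each genotype, and the dKO vehicle samples lay between the wildtype vehicle and wildtype MTOB samples. Esd rose 1.81-fold in wildtype (log2 fold change 0.85, SE 0.05, adjusted p = 1.88e-08) and 1.79-fold in dKO cells (log2 fold change 0.83, SE 0.05, adjusted p = 3.53e-08). The annotation also names a pseudogene, Esd-ps, whose reads the counting could share. None of the 3 glutathione transferases analysed, Gstm1, Gsto1 and Gstp1, which attach glutathione to electrophiles or reduce thiols with it, passed with MTOB. The log2 fold changes of the 3 ran from -0.13 to 0.19 in wildtype and from -0.10 to 0.17 in dKO cells. Gstp1 has a near-identical copy, Gstp2, that could share its reads.

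Of the 5 genes of NADPH supply, 3 rose with MTOB in each genotype. G6pdx and Pgd, the dehydrogenases of the oxidative pentose phosphate pathway, and Me1, cytosolic malic enzyme, were these 3, all with changes under 1.5-fold. Pgd went from 328 ± 4.44 to 399 ± 6.69 TPM in wildtype (log2 fold change 0.28, SE 0.02, adjusted p = 9.79e-07) and from 368 ± 3.83 to 483 ± 2.89 TPM in dKO cells (log2 fold change 0.39, SE 0.02, adjusted p = 2.63e-08). Me1 went from 23.2 ± 1.87 to 30.1 ± 1.66 TPM in wildtype (log2 fold change 0.36, SE 0.07, adjusted p = 0.00407) and from 22.8 ± 1.49 to 31.1 ± 0.775 TPM in dKO cells (log2 fold change 0.43, SE 0.07, adjusted p = 0.0012). G6pdx had log2 fold changes of 0.22 in wildtype (adjusted p = 0.00216) and 0.15 in dKO cells (adjusted p = 0.03). With only the 2 groups in the fit, Me1 in wildtype and G6pdx in both genotypes no longer passed (adjusted p = 0.0705, 0.0735 and 0.0889), and G6pdx in dKO cells also failed to pass when any of 5 dKO samples was left out (adjusted p of up to 0.116 without dKO vehicle replicate 3) or the variance trend was (0.11). The transaldolase and transketolase genes Taldo1 and Tkt, of the non-oxidative branch of that pathway, did not pass with MTOB, at -0.05 and -0.10 in wildtype and 0.07 and -0.04 in dKO cells on the log2 scale.

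The MTOB responses of both genotypes, which share no sample, were then set against each other. Of the 15 genes that passed in each, 13 were shared, or 86.7% of either list, all in the same direction. Across the 38 genes the log2 fold changes correlated with a Pearson r of 0.94 and a Spearman rho of 0.83, as a description across genes, which are not replicates. Neither the overlap nor the correlation was worked out over all genes, so whether they are particular to these genes was not tested. When the difference of the effects was tested directly, 0 of the 38 genes passed by limma (7 at an unadjusted p below 0.05), against 0.0916% of all genes that passed and 6.89% at the unadjusted limit. Of the 7 genes at the unadjusted limit, Srxn1 had the smallest p, with a difference, wildtype minus dKO, of -0.41 (95% interval -0.65 to -0.18, adjusted p = 0.312), that is a larger rise in dKO cells. Pgd followed at -0.11 (-0.18 to -0.04, adjusted p = 0.394) and Glrx at 0.51 (0.16 to 0.87, adjusted p = 0.526), the latter with the larger rise in wildtype cells. The difference was -0.01 (-0.15 to 0.13) for Txnrd1, 0.02 (-0.13 to 0.17) for Esd, -0.06 (-0.24 to 0.12) for Gpx1, 0.13 (-0.08 to 0.33) for Sqstm1 and -0.36 (-0.77 to 0.04) for Gclm. Slc7a11 had a difference of -0.30 (-0.59 to -0.01, adjusted p = 0.722), and the 3 that remain of the 7 were Sod2 at 0.24, Prdx6 at -0.16 and Prdx1 at -0.14 (adjusted p = 0.595, 0.7 and 0.705). Sod2, Txnrd2, Prdx1 and Prdx6, which passed in 1 genotype alone, were thus not shown to differ between genotypes.

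**Figure D4:**
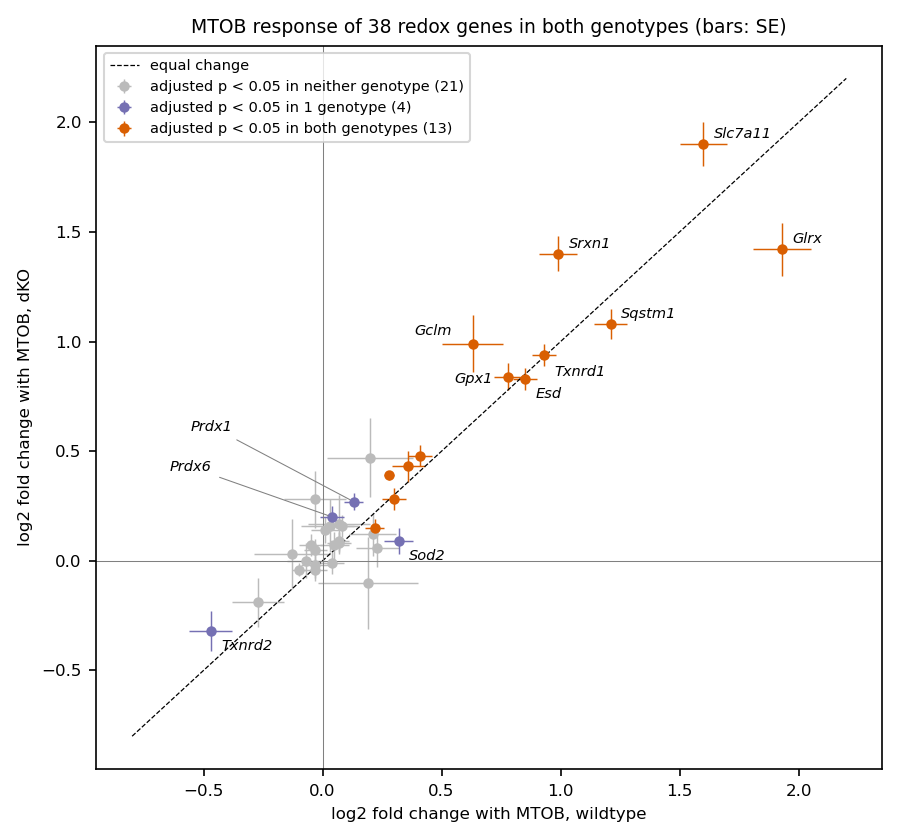
Log2 fold change of TPM + 1 with MTOB in dKO (vertical axis) against wildtype cells (horizontal axis) for 38 redox genes, with bars of 1 SE and a dashed line of equal change. The 13 genes that passed in both genotypes lie along the line in the upper right, with Srxn1, Gclm and Slc7a11 furthest above it and Glrx furthest below it.

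With 4-Cl-HIPP, 0 of the 38 genes passed the test in wildtype cells (limma, 3 at an unadjusted p below 0.05) and 0 in dKO cells (6 at that limit). Of all genes, 0.366% passed in wildtype and 0.501% in dKO cells, and 8.19% and 8.47% were below the unadjusted limit. The median log2 fold change over the 38 genes was 0.01 in wildtype and 0 in dKO cells. In wildtype the 3 genes were Sqstm1 at 0.24 (95% interval 0.10 to 0.39, adjusted p = 0.206), Gclc at 0.15 (0.05 to 0.25, adjusted p = 0.309) and Cat at 0.15 (0.03 to 0.26, adjusted p = 0.44). In dKO cells 3 of the 6 were Prdx2 at 0.16 (0.05 to 0.26, adjusted p = 0.271), Srxn1 at 0.23 (0.06 to 0.40, adjusted p = 0.336) and Glrx2 at 0.36 (0.09 to 0.63, adjusted p = 0.369). The other 3 were Glrx at 0.26 (0.01 to 0.51), Sqstm1 at 0.16 (0.01 to 0.30) and Nqo1 at -0.48 (-0.87 to -0.09), with adjusted p = 0.559, 0.524 and 0.449.

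The 8 genes called with MTOB were also read with 4-Cl-HIPP in wildtype cells. Txnrd1 had a log2 fold change of -0.07 (-0.17 to 0.03), Gpx1 of 0.06 (-0.06 to 0.19) and Esd of 0.09 (-0.02 to 0.19). Slc7a11 stood at -0.11 (-0.31 to 0.10), Glrx at 0.14 (-0.11 to 0.40), Srxn1 at 0.10 (-0.07 to 0.26) and Gclm at 0.14 (-0.15 to 0.42). With Sqstm1, given above, the upper ends of all 8 intervals lay below 0.585, the log2 of the 1.5-fold limit, and of the 8 only the interval of Sqstm1 left out 0. The difference between genotypes in the 4-Cl-HIPP effect passed for 0 of the 38 genes (limma, 1 at an unadjusted p below 0.05) and for 0% of all genes (4.48% at that limit), and the 1 gene was Cat at 0.19 (0.03 to 0.36, adjusted p = 1). The inhibitors were given at different doses, 1.5 mM and 250 µM, so their values are given side by side above and were not tested against each other.

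Under vehicle, 17 of the 38 genes differed between dKO and wildtype cells, 13 higher and 4 lower in dKO cells, against 10.7% of all genes tested, 7.01% higher and 3.72% lower. Above 1.5-fold there were 5, Taldo1, Glrx, Esd and Nqo1 higher and Slc7a11 lower, against 4.83% of all genes, 3.28% higher and 1.55% lower. The median log2 fold change of the 38 genes was 0.08, against 0.012 over all genes. Taldo1 lies at chr7:140972053-140982886 on the plus strand (GRCm39). Taldo1, transaldolase, measured 233, 261 and 259 TPM in wildtype and 410.2, 439.6 and 439 TPM in dKO vehicle samples. In wildtype cells it measured 233, 249 and 244 TPM with MTOB and 258, 259 and 253 TPM with 4-Cl-HIPP, and in dKO cells 473, 425 and 456 TPM with MTOB and 422, 436 and 428 TPM with 4-Cl-HIPP. All 9 dKO samples stood above all 9 wildtype samples. Within each genotype the samples with either inhibitor overlapped the vehicle samples, and in wildtype cells the MTOB samples all lay below the 4-Cl-HIPP samples. The dKO vehicle mean was 1.71 times the wildtype mean (log2 fold change 0.77, SE 0.05, adjusted p = 2.5e-08).

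Esd and Glrx, both raised by MTOB, were also higher in dKO than wildtype cells under vehicle, Esd 1.52-fold (log2 fold change 0.61, SE 0.05, adjusted p = 4.73e-07) and Glrx 1.6-fold (log2 fold change 0.66, SE 0.12, adjusted p = 0.00124). Slc7a11, raised by MTOB as well, was lower in dKO cells, at 0.583 times the wildtype mean (log2 fold change -0.61, SE 0.10, adjusted p = 0.000402). These 3 lay near the 1.5-fold limit: the log2 fold change of Glrx was 0.55 without wildtype vehicle replicate 3, that of Slc7a11 was -0.57 without wildtype vehicle replicate 2 and -0.55 without dKO vehicle replicate 1, and that of Esd was 0.57 without the last sample, so that 3 genes were called in place of 5 when it was left out. Esd also measured 0.58 under median-of-ratios scaling. In each of these cases the adjusted p was below 0.05. Nqo1 lies at chr8:108113835-108129934 on the minus strand (GRCm39). Nqo1 was barely detected, with a mean normalized count of 4.56 over all samples by the authors' value. It measured 0, 0.296 and 0 TPM in wildtype and 1.26, 1.17 and 1.10 TPM in dKO vehicle samples. With MTOB the values were 0.296, 0.154 and 0.313 TPM in wildtype and 1.29, 2.26 and 2.71 TPM in dKO samples, and with 4-Cl-HIPP they were 0.155, 0 and 0.162 TPM in wildtype and 0.324, 0.591 and 0.811 TPM in dKO samples. All 9 dKO samples were above all 9 wildtype samples, although the lowest dKO and the highest wildtype sample lay close, at 0.324 and 0.313 TPM. The difference under vehicle was 1.00 on the log2(TPM + 1) scale (adjusted p = 0.00161). At such a level its size depends on the pseudocount, with 1.52 at a pseudocount of 0.5 and 3.01 at 0.1 (adjusted p = 0.001 and 0.00136). The MTOB differences of 0.20 in wildtype and 0.47 in dKO cells did not pass.

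The other genes that passed between genotypes differed by less than 1.5-fold. Higher in dKO cells were G6pdx (0.31 on the log2 scale), Prdx2 (0.30), Sqstm1 (0.30), Cat (0.28), Gpx1 (0.25), Prdx6 (0.24), Txnrd1 (0.20), Sod1 (0.17) and Pgd (0.17). Lower were Glrx5 (-0.53), Sod2 (-0.29) and Keap1 (-0.22). By role, against 10.7% of all genes, those that passed were 2 of 3 genes of NRF2-KEAP1 control, 1 of 5 of glutathione synthesis, recycling and cystine import, 2 of 4 glutaredoxins and 1 of 4 thioredoxins and thioredoxin reductases. They were 2 of 7 peroxiredoxins and sulfiredoxin, 4 of 5 of superoxide and peroxide removal, 1 of 4 glutathione transferases and esterase, 3 of 5 of NADPH supply, and Nqo1. Keap1 measured 70.9 ± 2.06 TPM in wildtype and 60.8 ± 4.41 TPM in dKO vehicle samples without overlap (log2 fold change -0.22, SE 0.06, adjusted p = 0.0305). Keap1 no longer passed when any of 5 vehicle samples was left out (adjusted p of up to 0.149 without dKO vehicle replicate 1), nor did Sod1 when any of 3 was (adjusted p of up to 0.0789 without dKO vehicle replicate 3) and under median-of-ratios scaling (0.0885). Without the variance trend neither passed (0.0586 for Keap1 and 0.0679 for Sod1). Gpx1 did not pass without dKO vehicle replicate 3 (adjusted p = 0.0602). With only the 2 groups in the fit, Keap1, Sqstm1, Txnrd1 and Gpx1 no longer passed (adjusted p = 0.103, 0.0663, 0.0912 and 0.0677). Glrx5 in turn reached 1.5-fold without wildtype vehicle replicate 1, at -0.59.

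Other genes of redox metabolism were read from a second list of 68, of which 55 were listed and 54 tested, and 53 are counted because Nnt appears under 2 identifiers. With MTOB 16 passed in wildtype (10 higher, 6 lower) and 13 in dKO cells (10 higher, 3 lower), against the 7.26% and 6.58% of all genes given above. The partners and targets of NRF2 on it held 8 of these rises in each genotype, out of 16 genes. In wildtype cells 1 rose and 2 fell of 16 glutathione genes on it. The counts were 0 and 2 of 11 thioredoxin and sulfoxide repair genes and 1 and 2 of 10 NADPH genes. In dKO cells the same lists gave 1 and 1, 0 and 2, and 1 and 0. Called genes were Hmox1, heme oxygenase, at log2 fold changes of 2.10 in wildtype and 2.24 in dKO cells, Osgin1 at 1.49 and 1.33, Maff, a small MAF partner of NRF2, at 0.91 and 1.09, and Abcc1, an exporter of glutathione conjugates, at 0.83 and 0.77. Maff was a low gene, with vehicle means of 0.763 TPM in wildtype and 0.578 TPM in dKO cells and a mean normalized count of 9.945. Its change is thus poorly sized. The alternative settings given at the end were run for the members alone. Blvrb, biliverdin reductase B, was called in dKO cells at 0.62 and passed in wildtype below 1.5-fold at 0.54. Hagh, a glyoxalase that returns glutathione, was called lower in wildtype at -0.66 and measured -0.01 in dKO cells, with a difference between genotypes of -0.65 (adjusted p = 0.501). The difference of MTOB effects passed for 0 of the 53 genes (limma, 4 at an unadjusted p below 0.05), against 0.0916% and 6.89% of all genes. Between genotypes under vehicle 9 of the 53 passed, 6 higher and 3 lower in dKO cells, against 10.7% of all genes, 7.01% higher and 3.72% lower. With 4-Cl-HIPP 0 of the 53 passed in either genotype (limma, 5 and 4 at an unadjusted p below 0.05), against 0.366% and 0.501% of all genes that passed and 8.19% and 8.47% at the unadjusted limit.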

How the data were processed

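RNA-seq of polyA RNA was made with an unstranded TruSeq kit from 18 J774.1 samples, 3 in each of 6 groups. The authors quantified transcripts with Salmon 1.9.0 on GRCm39 and summarised them per gene, and the submitters' processing notes also name DESeq2 1.44.0. The deposited table gives scaled TPM per sample, summing to 999766 to 999896, and a mean normalized count per gene over all samples, a normalized signal of the authors. Its 8 columns of the authors' fold changes and adjusted p-values were not used. Raw counts were not used here, so the depth per sample is unknown and no counting interval is given.

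The test covered 16383 of 18204 genes, those whose mean normalized count exceeded 0.222, its 10th percentile. Values were taken as log2(TPM + 1), a scale that understates changes of low genes, and fitted with limma 3.58.1 (R 4.3.3) as 6 group means, using the 18 samples together. Variances were moderated by empirical Bayes, with a trend in the mean normalized count. The 5 comparisons and the 2 differences of an inhibitor effect between genotypes (wildtype minus dKO) were adjusted by the Benjamini-Hochberg method over all genes tested. All tests were two-sided. A gene passed at an adjusted p below 0.05 and was called if it also changed over 1.5-fold, a log2 fold change of 0.585. Intervals are 95% intervals of the fit, and folds in the text are ratios of mean TPM. The fit was tested on simulated data. The methods call the 3 samples of a group biological triplicates. The p-values rest on the spread between samples of a group, pooled over the 6 groups and moderated across genes.

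Members were given per sample if called in any comparison of groups, as were Nfe2l2 and Keap1, and the others by means, ranges and counts within their role. Genes of the other redox list were named if called with an inhibitor, and Blvrb and Hagh were also given in the genotype in which they were not called. The members and lists were chosen with earlier results of these data known. The NRF2 motif was searched in RefSeq promoters. Alternatives were other pseudocounts, filters, scalings and variance settings, fits of only the groups compared, a replicate block and leaving out each sample. Figures were drawn with matplotlib 3.10.9.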

Additional observations from a re-analysis of the deposited data

How the results depend on the processing

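The counts of called genes, 8 and 8 of 38 with MTOB in wildtype and dKO cells, 0 and 0 with 4-Cl-HIPP and 5 between genotypes, and the 0 differences between genotypes, stayed within 1.5 times under pseudocounts of 0.1 and 0.5, no filter, a mean normalized count of at least 10, median-of-ratios or quantile scaling, no variance trend and only the groups compared. Leaving out 1 sample gave 7 to 8 called genes with MTOB in wildtype, 8 to 9 in dKO cells, 0 with 4-Cl-HIPP and 3 to 6 between genotypes, with 3 without dKO vehicle replicate 1. With the replicate block the called genes numbered 8, 8 and 5 in the same comparisons. Samples with the same replicate number did not deviate together (r of -0.136 to 0.061 within a genotype). Of 18 samples, 1 correlated best with a sample of its own number. Such correlations of deviations from means of 3 samples cannot exclude that the numbers pair the samples. Within each genotype the library identifiers run replicate by replicate, and those of all wildtype samples precede those of all dKO samples. Whether this order marks a batch is not given, and an effect of the latter order cannot be told apart from genotype. Of 47 pairs of gene and comparison that passed, 34 kept an adjusted p below 0.05 in every alternative and 13 lost it in at least 1, and no direction changed. The log2 fold change of Nqo1 between genotypes ran from 0.93 to 3.01. Nqo1 was called with MTOB in dKO cells without dKO MTOB replicate 1 (log2 fold change 0.68) and was not tested at a mean normalized count of at least 10. Fits of only the groups compared rest on fewer samples. For the other losses the cause was not tested. With TPM and 3 samples a group, changes of genes as low as Nqo1 cannot be sized well.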
